A study of Mus musculus with 12 samples.

Results

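A group of 10 genes that mark the stroma of the bone marrow was followed through bulk RNA-seq of sorted osteoblast-lineage cells: *Lepr*, *Adipoq*, *Cxcl12*, *Kitl*, *Ebf3*, *Foxc1*, *Pdgfra*, *Vcam1*, *Cxcl14* and *Lpl*. They were chosen by symbol, and all 10 were found among the 32288 genes and transgenes of the counts table. Every one of the 10 passed the filter on low counts in each of the 6 comparisons. The lowest count of any of them in any library was 12, for *Adipoq*.

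Reticular stromal cells of the marrow, known as CAR cells for their abundant CXCL12 or as leptin receptor-positive cells, surround the sinusoids and hold blood stem cells in place with CXCL12 and stem cell factor. They depend on the transcription factors EBF3 and FOXC1, express adipogenic genes such as *Adipoq* and *Lpl* without being fat cells, and share skeletal precursors with osteoblasts. In the metaphysis, the zone of trabecular bone beneath the growth plate, both kinds of cell lie side by side.

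All 12 libraries came from mGFP+ cells that were negative for CD31, CD45 and TER119, sorted from the metaphysis of distal femurs and proximal tibias. Every mouse carried *Osx-CreERT2*, in which the promoter of the osteoblast gene *Osx* (*Sp7*) drives a tamoxifen-dependent Cre, and *mTmG*, a reporter that turns from red (tdTomato) to green (mGFP) on recombination, on a mixed C57BL/6–129x1/Sv background. Juvenile *Osx*+ osteoblasts (n = 4) were taken at 3 weeks of age and adult *Osx*+ osteoblasts (n = 4) at 8 weeks, each library from 2 pooled male mice, 2 days after tamoxifen on 3 consecutive days. *c-Myc*-induced osteoblasts (n = 2) also carried *LSL-tTA* and *Col1a1::TetO–c-Myc*, and *c-Myc* + *R172H* osteoblasts (n = 2) carried in addition *Trp53-LSL-R172H*, a missense allele of the p53 gene that Cre switches on. The mice of these 2 induced groups were of both sexes, received tamoxifen on 2 consecutive days at 3 weeks and were sampled 7 days after it. The submitters call them 5 weeks old at dissection, and up to about 5 mm of shaft was kept below the growth plate, against 2 mm in the control mice. Mice with the inducible alleles, or pregnant females, also drank doxycycline or tetracycline with sucrose until a set time before analysis. Induction therefore cannot be told apart from age at dissection, the length of bone taken, the tamoxifen schedule and this drug in the water. Sex differed too, since the control mice were all male. No control carried the *tTA* and *TetO* alleles without induction. The number of mice per induced library was not given in the sources used here.

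Total counts were 9066154 to 12648874 in the 8 control libraries and 12823338 to 15684412 in the 4 induced libraries. *Col1a1*, *Col1a2* and *Gm26917* took 57.1 to 65.3% of the counts in juvenile libraries, 42.4 to 56.1% in adult, 41.8 to 46.1% with *c-Myc* and 35.2 to 37.6% with *c-Myc* + *R172H*. Levels are therefore given as CPM, counts scaled to a common library size with TMM factors that correct for such differences in composition, and 3 counts are worth 0.137 to 0.417 CPM. The transgene was visible in the counts: *Myc* was at 39.8 to 52.2 CPM in controls and at 624 to 748 CPM in the induced libraries. Counts per gene do not show the R172H allele, and *Trp53* itself ranged from 56.0 to 65.3 CPM over the 4 induced libraries. Replicate 2 of each induced group stood apart in *Xist*, the transcript of the inactive X chromosome, with 234 and 212 CPM against at most 1.24 CPM in every other library. The fits were repeated without these 2 libraries, which leaves 1 library in each induced group and takes it to vary like the other groups. Calls that are lost or gained in those fits are given both ways.

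In juvenile libraries the osteoblast markers *Col1a1*, *Bglap* and *Sp7* stood above each of the 10 stromal genes per kilobase of exon, *Sp7* by the least. Without division by exon length, *Pdgfra* was above *Sp7* there, at 301 against 237 CPM. Per kilobase of exon, juvenile libraries had 73953 CPM of *Col1a1*, 622 CPM of the osteocalcin gene *Bglap* and 69.8 CPM of *Sp7*. On that scale *Pdgfra* was at 30.0, *Cxcl12* at 20.7, *Lepr* at 17.4 and *Foxc1* at 10.2 CPM per kilobase in juvenile libraries, and the other 6 genes were at 1.02 (*Ebf3*) to 4.19 (*Cxcl14*) CPM per kilobase. With *c-Myc* + *R172H*, *Bglap* was at 16.9 and *Sp7* at 35.6, against 8.40 for *Foxc1* and 8.11 for *Pdgfra*. The chondrocyte gene *Col2a1* was at 1687 CPM per kilobase in juvenile and 6357 in adult libraries, above *Bglap* and *Sp7*. These are sums over the sorted cells. The libraries are mixtures rich in *Col1a1* in which stromal genes are measured, and they are not CAR cell libraries. In bulk samples of this kind, fewer cells of a type and less RNA per cell cannot be told apart.

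Sequence upstream of the starts is shown for 4 of the genes that stand for the chemokines, the adipogenic genes and the transcription factors of the group. The windows are the 250 bases before the RefSeq start on GRCm38.p6, read 5′ to 3′ on the strand of the gene, with CpG dinucleotides in capitals. They lie at chr6:117168285-117168534 on the plus strand (*Cxcl12*), chr13:56296552-56296801 on the minus strand (*Cxcl14*), chr16:23146286-23146535 on the plus strand (*Adipoq*) and chr7:137314446-137314695 on the minus strand (*Ebf3*).
Cxcl12: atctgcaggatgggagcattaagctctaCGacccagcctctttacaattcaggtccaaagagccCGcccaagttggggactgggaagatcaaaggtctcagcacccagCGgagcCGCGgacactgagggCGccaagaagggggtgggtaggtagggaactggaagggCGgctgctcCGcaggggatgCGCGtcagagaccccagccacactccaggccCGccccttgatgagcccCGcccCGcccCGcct
Cxcl14: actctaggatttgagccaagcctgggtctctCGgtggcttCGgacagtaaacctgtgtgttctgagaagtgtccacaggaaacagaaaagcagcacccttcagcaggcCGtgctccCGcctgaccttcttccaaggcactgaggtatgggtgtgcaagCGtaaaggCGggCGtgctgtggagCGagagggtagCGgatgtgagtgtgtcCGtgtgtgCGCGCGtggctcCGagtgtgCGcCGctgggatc
Adipoq: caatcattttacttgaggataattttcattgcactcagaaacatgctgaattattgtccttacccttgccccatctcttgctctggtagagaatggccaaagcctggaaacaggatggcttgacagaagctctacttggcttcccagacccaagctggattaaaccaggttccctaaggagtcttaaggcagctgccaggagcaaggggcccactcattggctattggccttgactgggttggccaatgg
Ebf3: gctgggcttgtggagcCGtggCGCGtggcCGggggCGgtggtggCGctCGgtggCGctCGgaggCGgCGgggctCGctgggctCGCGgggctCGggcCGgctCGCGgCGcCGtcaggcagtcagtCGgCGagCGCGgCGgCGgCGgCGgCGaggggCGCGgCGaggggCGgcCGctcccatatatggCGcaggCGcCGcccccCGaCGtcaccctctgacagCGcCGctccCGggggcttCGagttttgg
The 4 windows hold 14 (*Cxcl12*), 16 (*Cxcl14*), 0 (*Adipoq*) and 43 (*Ebf3*) CpG dinucleotides, against a median of 6 over 32851 windows of the same length. RefSeq windows were given for 8 of the 10 genes, 9 windows in all because *Lepr* has a pair of starts; *Vcam1* and *Lpl* are named only. The E-box CACGTG, a sequence that MYC with its partner MAX can bind, was in 0 of these 9 windows and in 6.02% of all windows. The forkhead motif GTAAACA was in 0 of the 9 and in 3.17% of all. TATAAA was in 1 of the 9, that of *Kitl*, and in 12.4% of all. Motifs were searched on both strands, and with 1 match in these windows no matches overlapped there. No match means only that these letters are not in these windows.

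**Figure D1:**
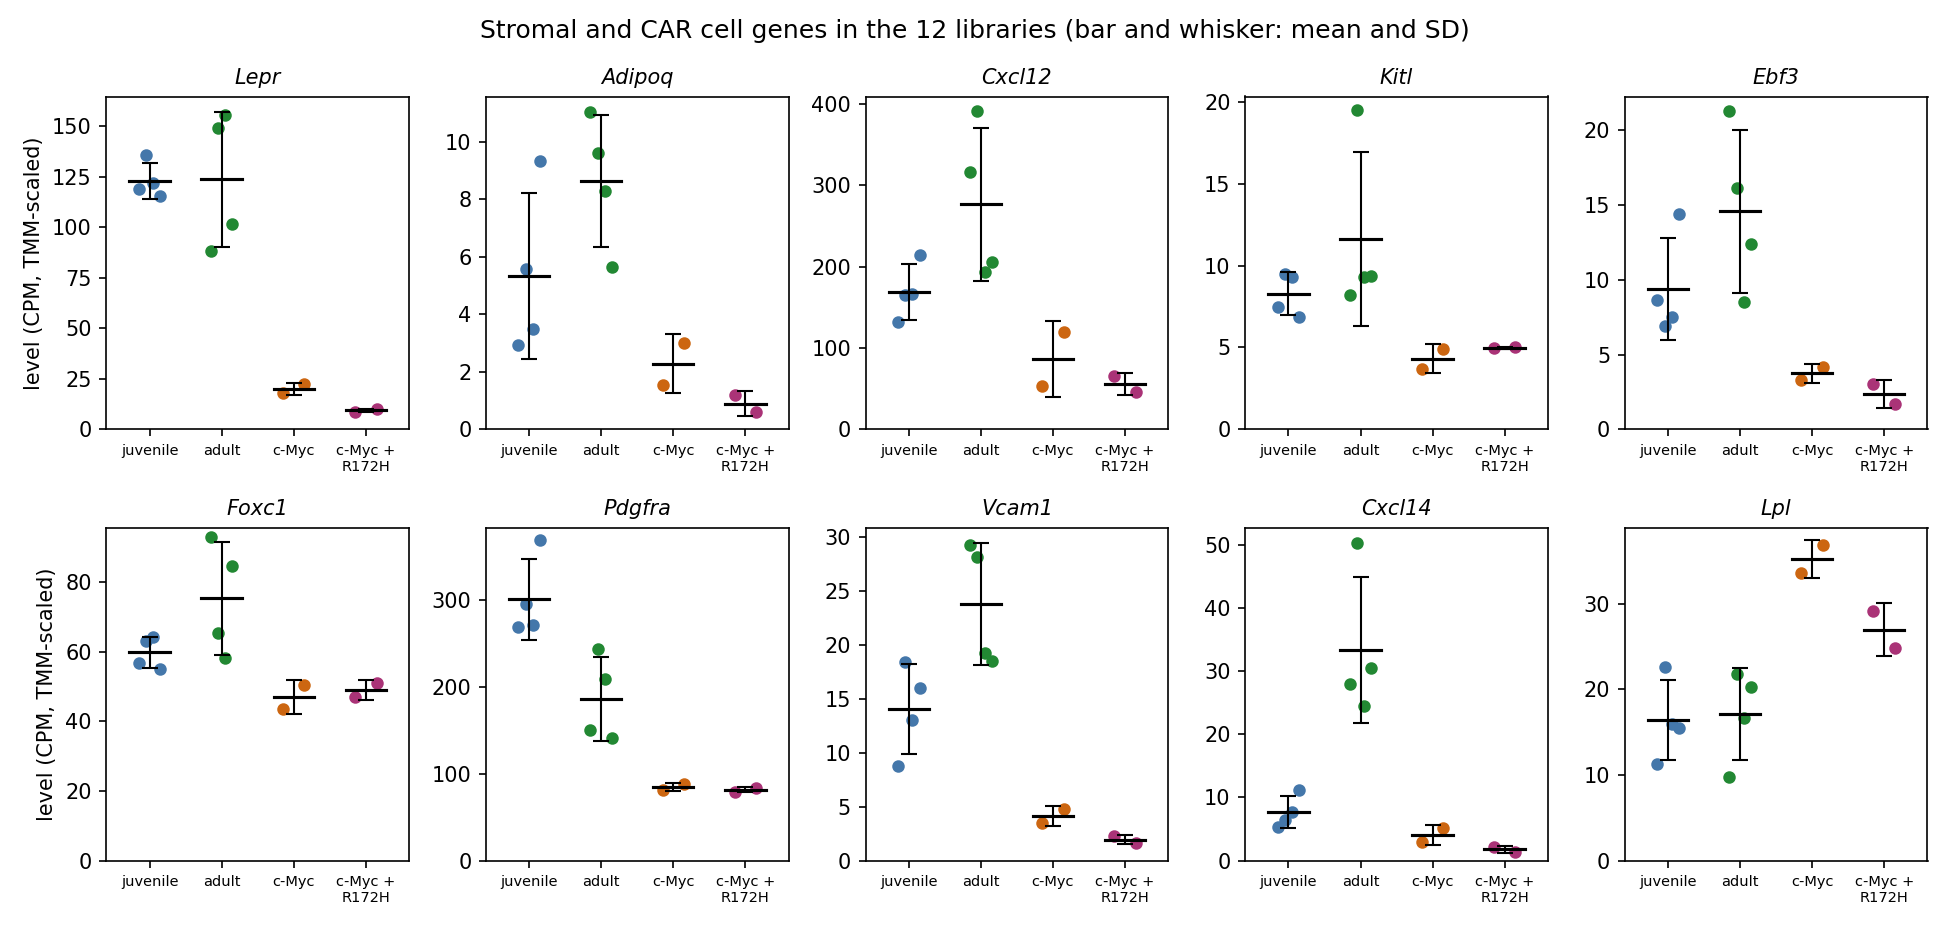
Level of each of the 10 genes in the 12 libraries, in CPM after TMM scaling on a linear axis from 0; points are libraries, horizontal bars means and whiskers SD. *Lepr* sits at 88.3 to 156 CPM in all 8 control libraries and at 8.70 to 22.2 CPM in the 4 induced libraries, *Cxcl14* separates adult from juvenile libraries, and *Lpl* is higher in the induced libraries.

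The ligands that stromal cells present to blood cells are *Cxcl12* and *Kitl*. *Cxcl12*, the chemokine that retains blood stem cells in the marrow, is listed as ENSMUSG00000061353 and lies on chromosome 6 of GRCm38 from 117168535 to 117181367. It was at 131, 164, 166 and 214 CPM in the juvenile libraries, at 316, 391, 194 and 206 CPM in the adult libraries, at 53.0 and 119 CPM with *c-Myc* and at 64.9 and 46.0 CPM with *c-Myc* + *R172H*. Adult and juvenile libraries overlapped, and all 4 induced libraries lay below all 8 controls. *Kitl*, which encodes stem cell factor, is listed as ENSMUSG00000019966 and lies on chromosome 10 from 100015630 to 100100416. It was at 7.49, 9.49, 9.32 and 6.83 CPM in juvenile libraries, 8.20, 19.5, 9.32 and 9.38 CPM in adult libraries, 3.70 and 4.93 CPM with *c-Myc* and 4.94 and 5.01 CPM with *c-Myc* + *R172H*. The induced libraries again lay below every control library, and adult replicate 2 was high.

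*Cxcl14*, a further chemokine of stromal cells, is listed as ENSMUSG00000021508 and lies on the minus strand of chromosome 13 from 56288643 to 56296551. Its juvenile libraries were at 5.30, 6.50, 7.65 and 11.2 CPM and its adult libraries at 27.9, 50.3, 24.6 and 30.5 CPM, with no overlap. With *c-Myc* it was at 2.97 and 5.22 CPM and with *c-Myc* + *R172H* at 2.20 and 1.39 CPM, below all control libraries. *Vcam1*, the adhesion molecule that binds integrin α4 on blood cells, is listed as ENSMUSG00000027962 and lies on the minus strand of chromosome 3 from 116109949 to 116129688. Juvenile libraries had 8.77, 18.4, 13.1 and 16.0 CPM, adult libraries 29.3, 28.1, 19.3 and 18.6 CPM, *c-Myc* libraries 3.47 and 4.76 CPM and *c-Myc* + *R172H* libraries 2.24 and 1.64 CPM. The 4 groups of *Vcam1* did not overlap one another.

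The receptors of the group are *Lepr* and *Pdgfra*. *Lepr*, the leptin receptor gene used to mark adult marrow stroma, is listed as ENSMUSG00000057722 and lies on chromosome 4 from 101717404 to 101815352. It was at 119, 136, 122 and 115 CPM in juvenile libraries and at 88.3, 149, 156 and 102 CPM in adult libraries, so the juvenile values fell inside the adult range. It was at 17.9 and 22.2 CPM with *c-Myc* and at 8.70 and 9.93 CPM with *c-Myc* + *R172H*, and these 2 groups overlapped neither each other nor the controls. *Pdgfra*, the receptor for PDGF ligands on mesenchymal cells, is listed as ENSMUSG00000029231 and lies on chromosome 5 from 75152292 to 75198215. Its 4 juvenile libraries had 269, 295, 271 and 369 CPM, above the adult libraries at 149.9, 243, 209 and 141 CPM, and those in turn lay above the induced libraries at 81.1 and 88.1 CPM with *c-Myc* and 79.3 and 83.3 CPM with *c-Myc* + *R172H*. The 2 induced groups overlapped.

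The transcription factors are *Ebf3* and *Foxc1*, both needed for CAR cells to keep their identity. *Ebf3* is listed as ENSMUSG00000010476 and lies on the minus strand of chromosome 7 from 137193673 to 137314445. It was at 8.68, 6.91, 7.51 and 14.4 CPM in juvenile libraries, 21.3, 16.1, 8.54 and 12.4 CPM in adult libraries, 3.29 and 4.20 CPM with *c-Myc* and 3.02 and 1.69 CPM with *c-Myc* + *R172H*. Controls overlapped, and the induced libraries lay below them. *Foxc1*, a single-exon gene listed as ENSMUSG00000050295 on chromosome 13 from 31806633 to 31812476, varied least: 56.9, 63.1, 64.3 and 55.2 CPM in juvenile libraries, 93.2, 65.5, 58.4 and 84.7 CPM in adult, 43.5 and 50.5 CPM with *c-Myc*, and 47.1 and 51.1 CPM with *c-Myc* + *R172H*. Even so, the 4 induced libraries of *Foxc1* lay below all 8 controls.

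The adipogenic genes went apart from each other. *Adipoq*, which encodes the hormone adiponectin, is listed as ENSMUSG00000022878 and lies on chromosome 16 from 23146536 to 23158028. It was at 2.92, 5.57, 3.48 and 9.32 CPM in juvenile libraries, 11.0, 9.60, 8.28 and 5.65 CPM in adult, 1.55 and 3.01 CPM with *c-Myc* and 1.19 and 0.596 CPM with *c-Myc* + *R172H*. For *Adipoq*, *c-Myc* replicate 2 lay within the juvenile range, and both *c-Myc* + *R172H* libraries lay below all others. *Lpl*, which encodes the lipase that frees fatty acids from circulating lipoproteins, is listed as ENSMUSG00000015568 and lies on chromosome 8 from 68880491 to 68907448. It was at 11.3, 22.6, 16.0 and 15.5 CPM in juvenile libraries, 9.72, 21.8, 16.7 and 20.3 CPM in adult, 33.6 and 36.8 CPM with *c-Myc* and 29.1 and 24.8 CPM with *c-Myc* + *R172H*, the only one of the 10 genes with its higher values in the induced libraries. The fat cell genes *Fabp4*, *Cidec*, *Retn*, *Lep* and *Ucp1* had at most 3 counts in each of the 12 libraries. The annotation places genes on the opposite strand over *Ebf3*, *Pdgfra* and *Vcam1*, and the strand setting of the counting is not stated, so a share of those counts could belong to the partner.

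The comparison of juvenile with adult *Osx*+ osteoblasts asked how the metaphyseal osteoblast changes as growth slows. *Cxcl14* was lower in juvenile libraries, and *Pdgfra* higher. A gene was called here at an edgeR adjusted p under 0.05, which 1.89% of 11345 tested genes met as higher in juvenile libraries and 3.23% as lower. Of the 10 stromal genes, 1 was called higher and 1 lower. The median log2 fold change of the 10, juvenile over adult, was -0.57, against 0.000934 over all genes tested. With library totals in place of TMM, under which all genes had a median of -0.24, the calls were 0 higher and 4 lower: *Pdgfra* (adjusted p = 0.0698) was lost and *Cxcl12*, *Vcam1* and *Foxc1* were gained.

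*Cxcl14* was at 7.66 ± 2.54 CPM (SD, n = 4) in juvenile and 33.3 ± 11.6 CPM (SD, n = 4) in adult libraries, a log2 fold change of -2.14 (SE 0.27, edgeR adjusted p = 0.000404). It stayed called in all 18 alternative fits, with log2 fold changes of -2.40 to -1.86. *Pdgfra* was at 301 ± 46.7 CPM (SD, n = 4) in juvenile and 186 ± 48.7 CPM (SD, n = 4) in adult libraries, a log2 fold change of 0.69 (SE 0.17, edgeR adjusted p = 0.026). The call on *Pdgfra* was lost without juvenile replicate 2 (edgeR adjusted p = 0.0644), juvenile replicate 4 (0.0913), adult replicate 1 (0.0705) or adult replicate 4 (0.083), each time with the same direction.

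The other genes did not pass the test between ages. *Vcam1* did not overlap between the groups and had a log2 fold change of -0.77 (SE 0.24, edgeR adjusted p = 0.0674), and *Cxcl12* had one of -0.72 (SE 0.23, edgeR adjusted p = 0.0938). DESeq2 called *Cxcl12* (adjusted p = 0.012), and so did edgeR without adult replicate 3 (adjusted p = 0.0311). *Adipoq* (-0.71, SE 0.37), *Ebf3* (-0.65, SE 0.30), *Kitl* (-0.50, SE 0.29) and *Foxc1* (-0.34, SE 0.15) had the same sign with edgeR adjusted p from 0.195 to 0.382. *Lepr* (-0.01, SE 0.16) and *Lpl* (-0.07, SE 0.26) were nearest to 0. Their intervals of 2 SE on either side ran from -0.33 to 0.30 for *Lepr* and from -0.59 to 0.44 for *Lpl*, and both changed sign under some alternatives.

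Markers of other cell types also differed between the ages. The summed level of 15 chondrocyte genes was 18804 to 36959 CPM in juvenile and 44862 to 142496 CPM in adult libraries, with 1 of 15 genes (*Col2a1*) called lower in juvenile libraries by edgeR and 10 by DESeq2. Of 5 tested pericyte and smooth muscle genes, *Tagln* and *Acta2* were called lower in juvenile libraries, and the summed level of that list was 81.5 to 95.9 CPM in juvenile and 110 to 136 CPM in adult libraries. The summed level of 16 haematopoietic genes was 1.37 to 6.12 CPM in juvenile and 10.2 to 14.7 CPM in adult libraries, with *Ptprc* at 0 in every juvenile library and at most 0.388 CPM in adult ones. Among osteoblast genes, the largest called differences were higher in juvenile libraries: *Spp1* (1.23, SE 0.16), *Dmp1* (1.04, SE 0.21) and *Sp7* (0.43, SE 0.12). The summed osteoblast level was 599237 to 877163 CPM in juvenile and 366087 to 652313 CPM in adult libraries. The part of these cell types in the differences of *Cxcl14* and *Pdgfra* was not tested.

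The second comparison set *c-Myc*-induced osteoblasts against juvenile *Osx*+ osteoblasts and asked what the oncogene does to these cells. *Lepr*, *Pdgfra*, *Vcam1* and *Ebf3* fell with *c-Myc*, and *Lpl* rose. A call here needed an edgeR adjusted p under 0.05 together with a log2 fold change of 1 or more in either direction, which 18.4% of 12588 tested genes met as higher and 16.0% as lower. Of the 10 stromal genes, 1 was called higher and 4 lower. The median log2 fold change of the 10 was -1.12, against 0.04 over all genes tested.

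*Lepr* fell from 123 ± 8.90 CPM (SD, n = 4) to 20.1 ± 3.06 CPM (SD, n = 2), a log2 fold change of -2.64 (SE 0.14, edgeR adjusted p = 2.78e-08). *Pdgfra* fell to 84.6 ± 4.92 CPM (SD, n = 2), a log2 fold change of -1.85 (SE 0.13, edgeR adjusted p = 2.72e-07). *Vcam1* fell from 14.1 ± 4.14 CPM (SD, n = 4) to 4.12 ± 0.914 CPM (SD, n = 2), a log2 fold change of -1.79 (SE 0.34, edgeR adjusted p = 0.000637). Without both libraries with *Xist* counts, *Lepr* (-2.81, edgeR adjusted p = 1.72e-07), *Pdgfra* (-1.92, edgeR adjusted p = 4.74e-06) and *Vcam1* (-2.04, edgeR adjusted p = 0.006) stayed called. In 9 of the 10 genes, all but *Adipoq*, the libraries did not overlap between the groups, 1 higher and 8 lower, where 35.7% of all genes tested were higher and 28.7% lower in both *c-Myc* libraries than in every juvenile one.

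*Ebf3* fell from 9.38 ± 3.43 CPM (SD, n = 4) to 3.74 ± 0.642 CPM (SD, n = 2), a log2 fold change of -1.35 (SE 0.38, edgeR adjusted p = 0.0103). That call was lost without *c-Myc* replicate 1 (-1.18, edgeR adjusted p = 0.114) and without both libraries with *Xist* counts (-1.54, edgeR adjusted p = 0.0542). *Lpl* rose from 16.4 ± 4.66 CPM (SD, n = 4) to 35.2 ± 2.26 CPM (SD, n = 2), a log2 fold change of 1.09 (SE 0.21, edgeR adjusted p = 0.000849). Without juvenile replicate 1, which had the lowest *Lpl*, its log2 fold change was 0.94, under the fold threshold.

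*Cxcl12* (-0.99, SE 0.31, edgeR adjusted p = 0.0245), *Kitl* (-0.96, SE 0.29, edgeR adjusted p = 0.0135) and *Foxc1* (-0.37, SE 0.12, edgeR adjusted p = 0.0189) were below an adjusted p of 0.05 but not past the fold threshold. Without both libraries with *Xist* counts, *Kitl* (edgeR adjusted p = 0.0961) and *Foxc1* (edgeR adjusted p = 0.0657) were no longer below 0.05. The size for *Cxcl12* rested on 1 library: without *c-Myc* replicate 2, at 119 CPM, it was -1.70 (edgeR adjusted p = 0.000251), as it was without both libraries with *Xist* counts, and without *c-Myc* replicate 1 it was -0.52 (edgeR adjusted p = 0.113). *Cxcl14* (-0.92, SE 0.40, edgeR adjusted p = 0.0677) and *Adipoq* (-1.24, SE 0.56, edgeR adjusted p = 0.0773) did not pass the test. These genes lay near the thresholds. With upper-quartile normalization *Cxcl12* (-1.06, edgeR adjusted p = 0.0208) and *Kitl* (-1.04, edgeR adjusted p = 0.00894) were called. Without juvenile replicate 1, calls were gained by *Cxcl12* (-1.09), *Kitl* (-1.01), *Cxcl14* (-1.06, edgeR adjusted p = 0.0438) and *Adipoq* (-1.45, edgeR adjusted p = 0.0443).

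Scaling mattered for the smaller differences. With library totals in place of TMM, the median log2 fold change of all genes moved from 0.04 to 0.87 in this comparison, 1 stromal gene was called higher and 2 lower, and *Foxc1* turned to 0.46, which is still below that median. *Lepr* kept its call with a log2 fold change of -1.81 and *Pdgfra* with -1.01 under this scaling, while *Ebf3* (-0.50) lost its call by the test and *Vcam1* (-0.95) by the fold threshold.

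**Figure D2:**
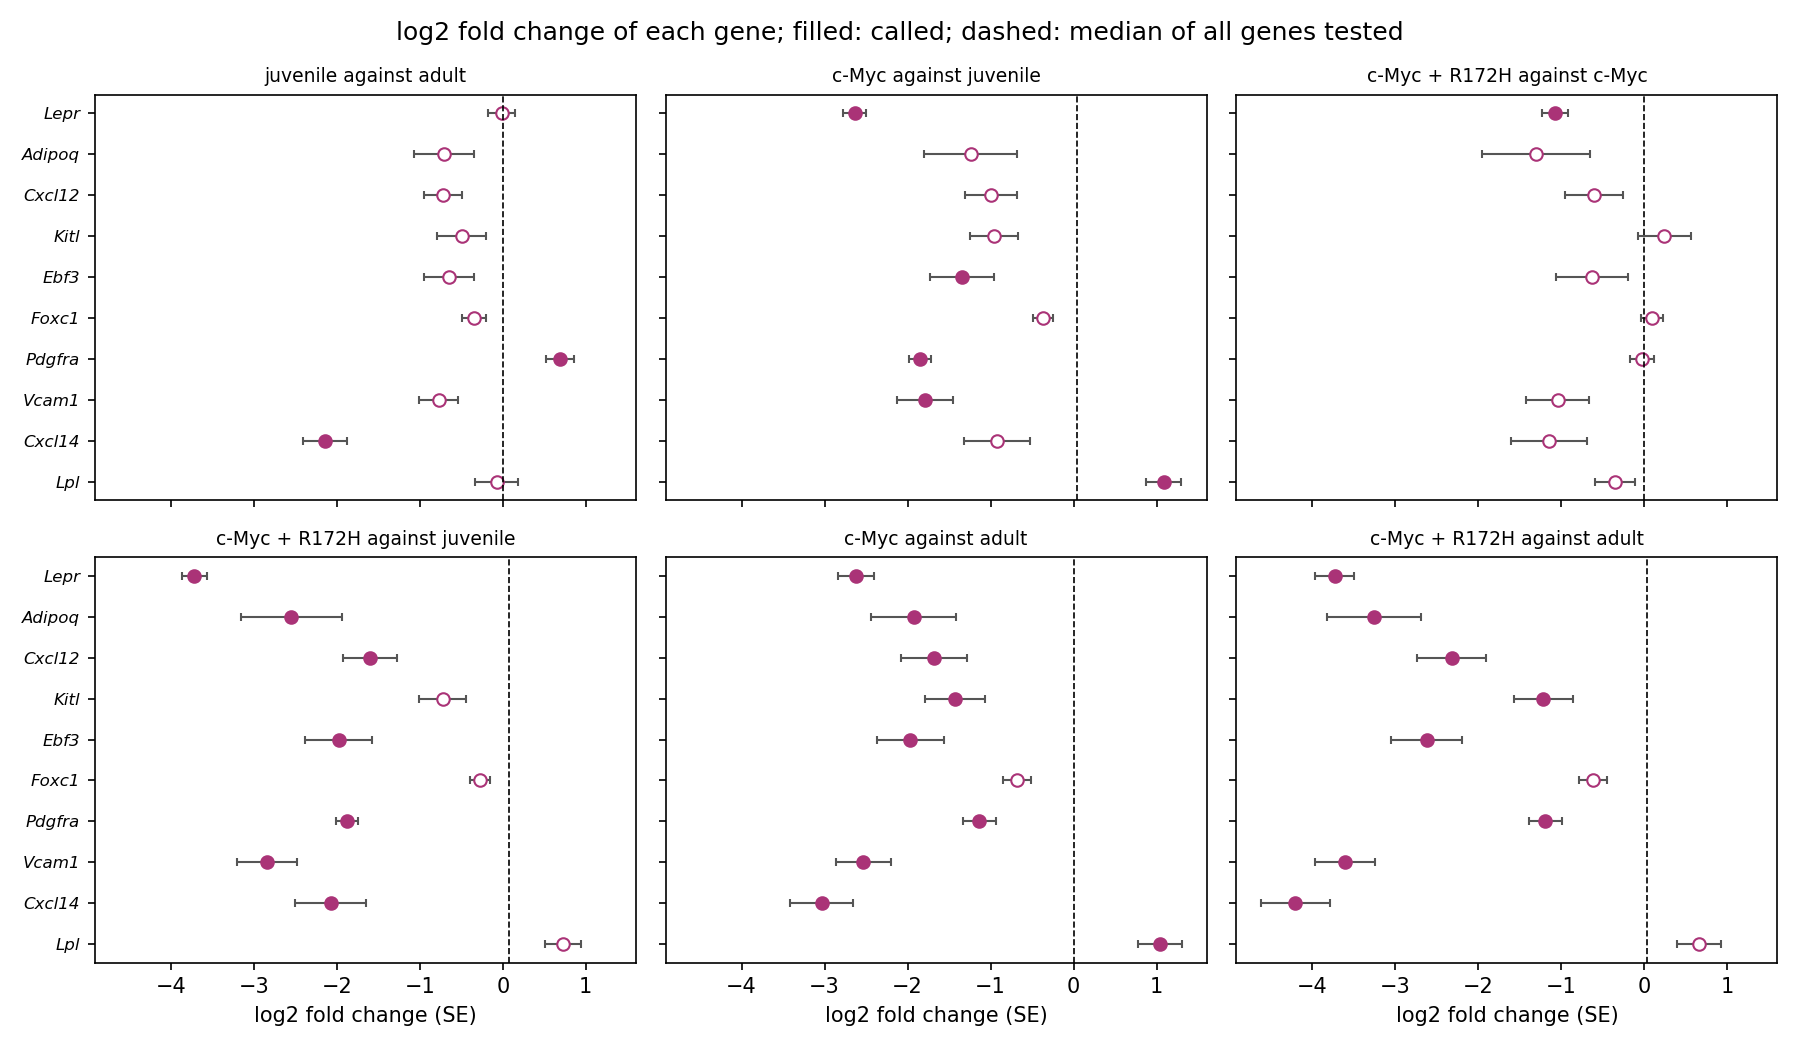
log2 fold change of each of the 10 genes (x axis, whiskers 1 SE) in the 6 comparisons; filled points passed the call of that comparison and the dashed line is the median of all genes tested. *Lepr* moves from -0.01 between ages to -2.64 with *c-Myc* and -3.72 with *c-Myc* + *R172H* against juvenile libraries, while *Lpl* stands to the right of the median in all 4 comparisons of induced with control libraries.

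Adding the p53 mutation was addressed by *c-Myc* + *R172H* against *c-Myc*. *Lepr* alone of the 10 genes passed the test, and it was lower with R172H. The call at an edgeR adjusted p under 0.05 was rare here, met by 0.00794% of 12588 tested genes as higher and by 0.461% as lower. Of the 10 stromal genes, 0 were called higher and 1 lower, and the median log2 fold change of the 10 was -0.62, against -0.00276 over all genes tested.

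*Lepr* averaged 9.31 ± 0.87 CPM (SD, n = 2) in *c-Myc* + *R172H* libraries and 20.1 ± 3.06 CPM (SD, n = 2) in *c-Myc* libraries, a log2 fold change of -1.08 (SE 0.15, edgeR adjusted p = 0.00983). The direction held in all 19 alternatives, from -1.26 to -0.86, but the call was lost in 6 of them. These were the fits without *c-Myc* replicate 2 (edgeR adjusted p = 0.118), without *c-Myc* + *R172H* replicate 1 (0.126) or 2 (0.0522), without both libraries with *Xist* counts (0.313), with all 12 libraries in the fit (0.0734) and with library totals (0.272). Markers of other skeletal cells were lower beside it: of 16 osteoblast genes, *Col1a1* (-1.05, SE 0.19, edgeR adjusted p = 0.0307) and *Sparc* (-0.87, SE 0.14, edgeR adjusted p = 0.0204) were called lower. The summed chondrocyte level was 881 and 1049 CPM with *c-Myc* + *R172H* and 1889 and 2129 CPM with *c-Myc*, and the summed pericyte level was 24.9 and 42.1 CPM against 56.3 and 69.2 CPM. Their part in the difference of *Lepr* was not tested.

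*Vcam1* (-1.05, SE 0.39, edgeR adjusted p = 0.665), *Cxcl14* (-1.15, SE 0.46, edgeR adjusted p = 0.816), *Adipoq* (-1.31, SE 0.65, edgeR adjusted p = 1.0) and *Ebf3* (-0.63, SE 0.43, edgeR adjusted p = 1.0) missed the threshold. Their differences were smaller without both libraries with *Xist* counts, at -0.63 for *Vcam1*, -0.43 for *Cxcl14*, -0.38 for *Adipoq* and -0.12 for *Ebf3*. Including *Lepr*, 7 of the 10 genes did not overlap between the induced groups, *Kitl* as higher and 6 as lower with *c-Myc* + *R172H*, where 17.5% of all genes tested were higher and 27.5% lower without overlap. When only these 4 libraries were fitted, *Vcam1* and *Cxcl14* (edgeR adjusted p = 0.0298 for each) and *Lpl* (-0.35, edgeR adjusted p = 0.04) passed the threshold. *Foxc1* and *Pdgfra* differed least, with intervals of 2 SE on either side of -0.17 to 0.36 and -0.31 to 0.26 on the log2 scale. *Cxcl12* had a log2 fold change of -0.61 (SE 0.35, edgeR adjusted p = 1.0), which became 0.07 without *c-Myc* replicate 2 and 0.29 without both libraries with *Xist* counts. *Kitl* (0.24, SE 0.32) and *Lpl* (-0.36, SE 0.24) also missed the threshold in the fit with juvenile libraries, both with an edgeR adjusted p = 1.0.

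Against juvenile libraries, *c-Myc* + *R172H* osteoblasts had lower levels of 7 of the 10 genes. The call with the fold threshold was met by 19.6% of tested genes as higher and 17.9% as lower, and by 0 and 7 of the stromal genes. Their median log2 fold change was -1.93, against 0.08 over all genes. This comparison shares its juvenile libraries with that of *c-Myc* alone, so the values are set side by side and not counted as separate evidence. *Lepr* fell by 3.72 (SE 0.15, edgeR adjusted p = 3.63e-09) on the log2 scale, a 13.1-fold lower level, where it fell by 2.64 with *c-Myc* alone. *Vcam1* fell by 2.84 (SE 0.36, edgeR adjusted p = 2.69e-05), where it fell by 1.79 with *c-Myc* alone.

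*Adipoq* fell by 2.55 (SE 0.61, edgeR adjusted p = 0.00332), from 5.32 ± 2.90 CPM (SD, n = 4) to 0.893 ± 0.42 CPM (SD, n = 2), and lost its call without both libraries with *Xist* counts (-2.18, edgeR adjusted p = 0.0667). *Cxcl14* fell by 2.07 (SE 0.43, edgeR adjusted p = 0.00123), *Ebf3* fell by 1.98 (SE 0.40, edgeR adjusted p = 0.00106), *Pdgfra* fell by 1.88 (SE 0.13, edgeR adjusted p = 1.76e-07) and *Cxcl12* fell by 1.60 (SE 0.33, edgeR adjusted p = 0.00235). *Kitl* (-0.72, SE 0.28, edgeR adjusted p = 0.0447) and *Lpl* (0.73, SE 0.21, edgeR adjusted p = 0.0112) were under an adjusted p of 0.05 without reaching the fold threshold, and were above it without both libraries with *Xist* counts (edgeR adjusted p = 0.268 and 0.0628). *Foxc1* (-0.28, SE 0.12, edgeR adjusted p = 0.0625) did not pass the test. With library totals the median of all genes was 1.12, and *Foxc1* and *Kitl* turned to 0.77 and 0.32, both below that median. Under that scaling *Cxcl12* (-0.53, adjusted p = 0.0716), *Ebf3* (-0.92, adjusted p = 0.0519) and *Pdgfra* (-0.83) lost their calls and *Lpl* (1.78) gained one.

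Against adult libraries most of the 10 genes were lower in the induced groups, *Cxcl14*, *Vcam1* and *Lepr* foremost. With *c-Myc* against adult, 1 of the 10 was called higher and 8 lower, where 17.1% of 13005 tested genes were called higher and 16.2% lower. With *c-Myc* + *R172H* against adult, 0 were called higher and 8 lower, where 17.3% and 19.0% of genes were. The medians of the 10 were -1.81 and -2.47, against 0.01 and 0.03 over all genes. The induced mice received tamoxifen at 3 weeks, so no adult cells were induced here. *Cxcl14* was lower by 3.03 (SE 0.38, edgeR adjusted p = 3.76e-06) with *c-Myc*. With *c-Myc* + *R172H* it was lower by 4.20 (SE 0.41, edgeR adjusted p = 1.86e-07). Juvenile libraries were already lower than adult ones for this gene, with a log2 fold change of -2.14. The log2 fold change of *c-Myc* against juvenile libraries was -0.92 (edgeR adjusted p = 0.0677), not called. *Vcam1* was lower by 2.53 (SE 0.33, edgeR adjusted p = 5.18e-06) with *c-Myc* and by 3.61 (SE 0.36, edgeR adjusted p = 1.71e-07) with *c-Myc* + *R172H*.

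*Lepr* fell by 2.62 (SE 0.22, edgeR adjusted p = 4.11e-08) and fell by 3.73 (SE 0.23, edgeR adjusted p = 1.3e-09), close to its values against juvenile libraries. *Adipoq*, *Cxcl12*, *Ebf3*, *Kitl* and *Pdgfra* were called lower in both comparisons, with log2 fold changes of -1.97 (*Ebf3*) to -1.14 (*Pdgfra*) with *c-Myc* and -3.25 (*Adipoq*) to -1.19 (*Pdgfra*) with *c-Myc* + *R172H*. *Kitl* lost its call for *c-Myc* against adult without *c-Myc* replicate 1 (-1.22). For *c-Myc* + *R172H* against adult, *Kitl* lost its call without either *c-Myc* + *R172H* library and without both libraries with *Xist* counts. In that comparison it also fell under the fold threshold without adult replicate 2 (-0.85). *Adipoq* lost its call without *c-Myc* replicate 1 (-1.51, edgeR adjusted p = 0.0906), and *Pdgfra* was under the fold threshold without adult replicate 2 (-0.98). With library totals, *Kitl* (-0.85, edgeR adjusted p = 0.0534) and *Pdgfra* (-0.56, under the fold threshold) lost their *c-Myc* calls, and with *c-Myc* + *R172H* both were lost too (-0.40, edgeR adjusted p = 0.336, and -0.37, edgeR adjusted p = 0.066).

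*Foxc1* (-0.68 and -0.62, edgeR adjusted p = 0.00242 and 0.00449) stayed under the fold threshold, and turned to 0.16 against *c-Myc* + *R172H* with library totals, where the median of all genes was 0.82. *Lpl* rose by 1.04 (SE 0.27, edgeR adjusted p = 0.00335) with *c-Myc* and had a log2 fold change of 0.66 (SE 0.27, edgeR adjusted p = 0.0482) with *c-Myc* + *R172H*, which was 0.78 (edgeR adjusted p = 0.109) without both libraries with *Xist* counts. The *c-Myc* call on *Lpl* was under the fold threshold without adult replicate 1 (0.84), without *c-Myc* replicate 2 (0.99) and without both libraries with *Xist* counts (0.99).

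The order of the 4 group means was adult, juvenile, *c-Myc*, *c-Myc* + *R172H* for *Lepr*, *Adipoq*, *Cxcl12*, *Ebf3*, *Vcam1* and *Cxcl14*. Neighbours in that order differed at an edgeR adjusted p under 0.05 between juvenile and *c-Myc* for *Lepr*, *Cxcl12*, *Ebf3* and *Vcam1*, between adult and juvenile for *Cxcl14*, and between *c-Myc* and *c-Myc* + *R172H* for *Lepr*. For *Adipoq* no neighbours differed at that level. *Kitl* and *Foxc1* kept the order of controls over induced groups with the 2 induced groups exchanged, *Pdgfra* was highest in juvenile libraries, and *Lpl* ran from *c-Myc* down to *c-Myc* + *R172H*, adult and juvenile.

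Other genes of the stroma were counted from lists written with earlier results of these data known. Of 18 tested niche factors besides the 10, 1 was called higher and 8 lower with *c-Myc* against juvenile libraries. Of all 12588 genes tested, 18.4% were called higher and 16.0% lower. The median log2 fold change of the niche factors was -1.17. *Ptn*, which encodes the growth factor pleiotrophin, fell by 3.19 (SE 0.38, edgeR adjusted p = 1.59e-05), from 30.5 ± 11.5 CPM (SD, n = 4) to 3.37 ± 0.37 CPM (SD, n = 2). *Agt*, the angiotensinogen gene, fell by 2.54 (SE 0.36, edgeR adjusted p = 7.6e-05). *Chrdl1*, a secreted BMP antagonist, rose by 2.23 (SE 0.22, edgeR adjusted p = 3.15e-06), from 7.22 ± 2.34 CPM (SD, n = 4) to 34.4 ± 1.23 CPM (SD, n = 2).

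Of 17 tested stromal transcription factors, 0 were called higher and 7 lower with *c-Myc*, where 18.4% of all genes tested were higher and 16.0% lower. *Cebpd*, a factor of the adipogenic cascade, fell by 2.68 (SE 0.28, edgeR adjusted p = 6.09e-06), *Twist1* fell by 1.83 (SE 0.28, edgeR adjusted p = 0.000151) and *Snai2* fell by 1.80 (SE 0.50, edgeR adjusted p = 0.00846). Of 12 tested surface markers, 0 were called higher and 6 lower. *Pdpn*, which encodes podoplanin, fell by 3.11 (SE 0.46, edgeR adjusted p = 0.000102), *Thy1* fell by 2.30 (SE 0.80, edgeR adjusted p = 0.0276) and *Cd200* fell by 1.90 (SE 0.15, edgeR adjusted p = 4.67e-07). With library totals the lower counts of these 3 lists were 5, 1 and 2 and the higher counts 2, 2 and 3.

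Partners of the 10 genes were mixed, with 2 of 23 called higher and 8 lower with *c-Myc*, beside 18.4% and 16.0% of all genes tested. *Itga4*, whose product is the integrin α4 that binds VCAM1, rose by 4.72 (SE 0.33, edgeR adjusted p = 2e-07), from 0.805 ± 0.513 CPM (SD, n = 4) to 21.9 ± 1.02 CPM (SD, n = 2). *Pdgfc*, a ligand of PDGFRα, fell by 2.89 (SE 0.17, edgeR adjusted p = 5.52e-08), from 69.5 ± 7.07 CPM (SD, n = 4) to 9.54 ± 0.906 CPM (SD, n = 2). *Ackr3*, the scavenging receptor for CXCL12, fell by 2.29 (SE 0.48, edgeR adjusted p = 0.00139). The leptin gene *Lep* had 0 counts in all 12 libraries, and *Gpihbp1*, the endothelial anchor of LPL, at most 3 counts in each.

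With *c-Myc* + *R172H* against juvenile libraries, 1 of 18 niche factors was called higher and 9 lower. The counts were 0 and 7 of 17 transcription factors, 0 and 7 of 12 surface markers and 2 and 8 of 23 partners. Of all genes tested, 19.6% were called higher and 17.9% lower. *Ptn* fell by 5.44 (SE 0.46, edgeR adjusted p = 7.54e-07), *Pdpn* fell by 5.12 (SE 0.55, edgeR adjusted p = 6.03e-06) and *Pdgfc* fell by 3.83 (SE 0.18, edgeR adjusted p = 8.14e-09), and *Itga4* rose by 4.81 (SE 0.33, edgeR adjusted p = 1.26e-07). Between the 2 induced groups, 0 genes of these 4 lists were called in either direction. At that comparison, 589 of the 12588 genes tested, fewer than 1 in 20, had an unadjusted edgeR p under 0.05. DESeq2 called 1 niche factor and 3 partners lower.

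Between juvenile and adult libraries few genes of these lists were called: *Apoe* among 18 niche factors (-1.40, SE 0.28, edgeR adjusted p = 0.0205) and *Snai2* among 15 transcription factors (-1.42, SE 0.29, edgeR adjusted p = 0.00927) were lower in juvenile libraries, and *Cd200* among 12 surface markers was higher (0.79, SE 0.13, edgeR adjusted p = 0.00179). Of 21 partners, *Pdgfc* (0.70, SE 0.18, edgeR adjusted p = 0.0326) and *Jak2* (0.55, SE 0.15, edgeR adjusted p = 0.0381) were higher in juvenile libraries and *Adipor2* (-0.58, SE 0.15, edgeR adjusted p = 0.0307) was lower. *Pdgfra* and its ligand gene *Pdgfc* were both called higher in juvenile libraries.

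**Figure D3:**
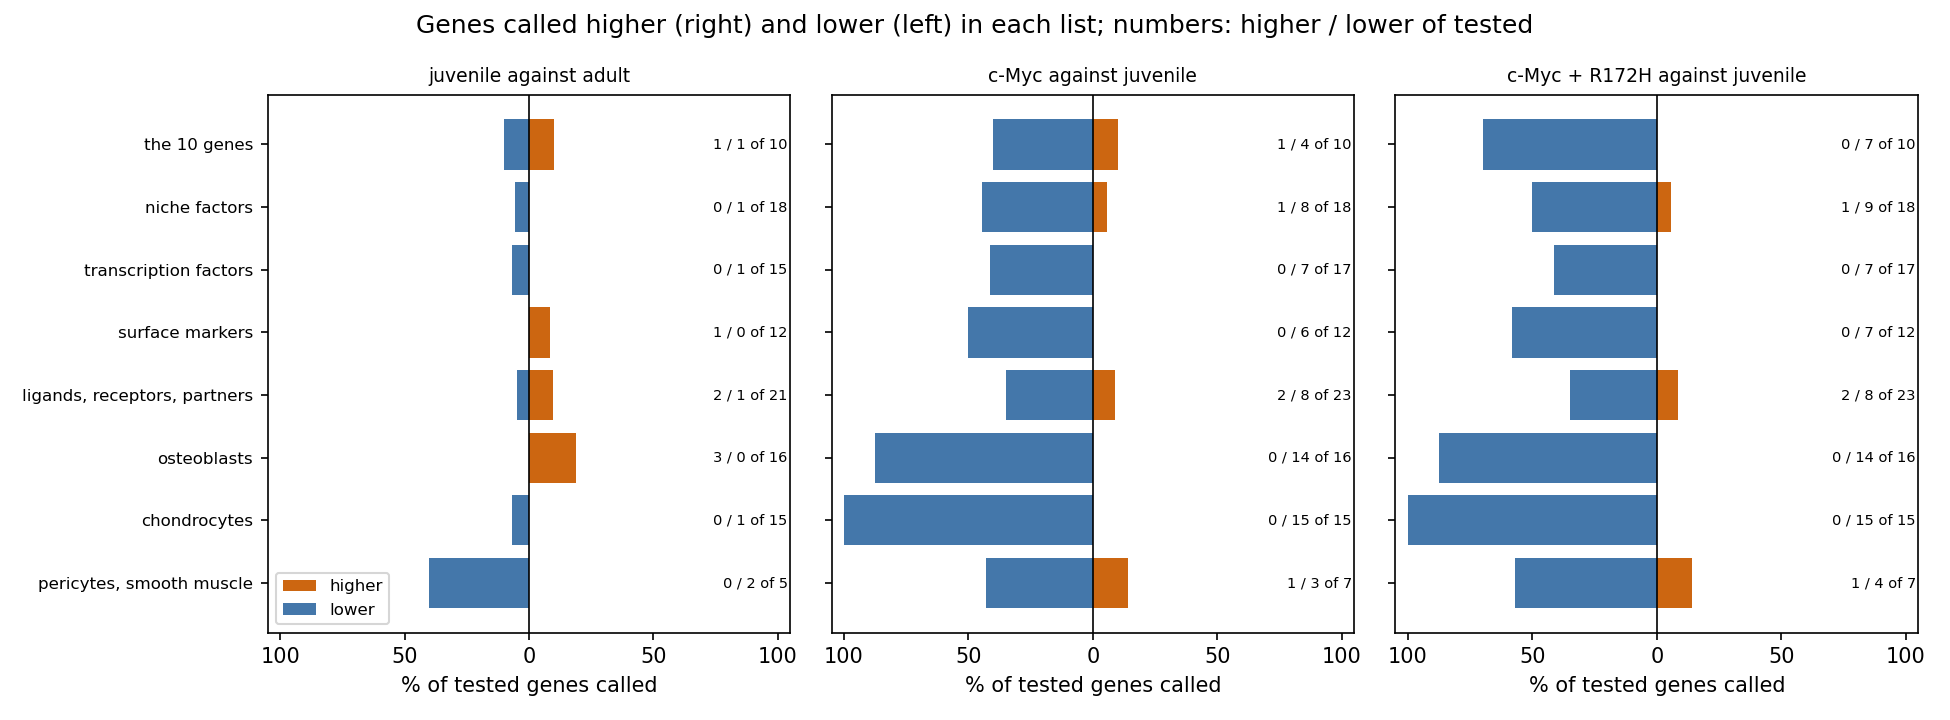
Share of the tested genes of each list called higher (bars to the right, orange) and lower (bars to the left, blue), in % of tested genes, for 3 comparisons; the numbers are genes called higher, called lower and tested. With *c-Myc*, 4 of the 10 stromal genes were called lower, beside 14 of 16 osteoblast and 15 of 15 chondrocyte genes.

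The fall of stromal genes with *c-Myc* stood beside falls of other skeletal markers. Of 16 osteoblast genes, 0 were called higher and 14 lower with *c-Myc* against juvenile libraries, with a median log2 fold change of -1.93, and the same counts held with *c-Myc* + *R172H* at a median of -2.65. *Bglap* fell by 3.29 (SE 0.36, edgeR adjusted p = 5.91e-05) with *c-Myc*. Of 15 chondrocyte genes, 15 were called lower, and their summed level fell from 18804 to 36959 CPM in juvenile libraries to 1889 and 2129 CPM with *c-Myc*.

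Other lineages contributed few counts. The summed level of 12 endothelial genes was 1.49 to 5.21 CPM in juvenile libraries and 11.9 to 17.4 CPM in the 4 induced libraries, that of 16 haematopoietic genes 8.94 to 15.4 CPM in the induced libraries, and that of 14 adipocyte genes 13.5 to 23.9 CPM in juvenile and 27.3 to 31.4 CPM in the induced libraries. The endothelial markers *Pecam1* and *Cdh5* and the haematopoietic marker *Ptprc* stayed at or under 0.645 CPM in every library. *Pecam1* was at 0 in juvenile and at 0.284 to 0.645 CPM in the induced libraries. Other endothelial genes went both ways with *c-Myc* + *R172H* against juvenile libraries. *Vwf* was called higher (2.83, SE 0.77, edgeR adjusted p = 0.00721), at 7.95 against 1.03 CPM, and so was *Egfl7* (5.10), while *Erg* was called lower (-3.07). The adipocyte sum was carried by genes that other cells use too: *Dgat2* was called higher with *c-Myc* (2.77, SE 0.60, edgeR adjusted p = 0.0019), at 8.88 ± 2.05 CPM (SD, n = 2).

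The red reporter also moved with induction. *tdTomato*, which cells lose on recombination, was at 0.695 to 8.68 CPM in the 8 control libraries and at 28.9 to 34.5 CPM in the 4 induced libraries, while *EGFP* was at 285 to 573 CPM in all 12. The interval from tamoxifen to sampling also differed between these groups, and the part of the red signal in the results was not tested. Within groups, the correlation of *tdTomato* with the 10 genes, described next, ran from -0.559 (*Ebf3*) to 0.351 (*Lepr*).

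Within groups, the genes did not all deviate together. Deviations of log2(CPM + 1) from the group means were compared over the 12 libraries, which share depth and scaling, and Pearson's r is given as a description. Of the 45 pairs among the 10 genes, 36 had a positive r, 18 an r over 0.5 and 3 an r under -0.5, with a median of 0.342. *Cxcl12* went with *Cxcl14* (0.85), *Vcam1* (0.766), *Adipoq* (0.743) and *Ebf3* (0.696). *Lepr* went with *Pdgfra* (0.725) and *Kitl* (0.625), was near 0 with *Cxcl12* (0.0899) and *Vcam1* (0.0151), and was opposite to *Foxc1* (-0.679) and *Ebf3* (-0.529). *Foxc1* and *Pdgfra* were opposite too (-0.726). The opposition of *Lepr* to *Foxc1* was seen in the adult libraries only. In juvenile libraries both genes were higher in replicates 2 and 3 than in replicates 1 and 4. In each induced group *Lepr*, *Pdgfra* and *Foxc1* were all higher in replicate 2.

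In the adult libraries, which enter these correlations, *Lepr* and *Pdgfra* ran opposite to *Foxc1*. Adult replicates 1 and 4 had the lower *Lepr* (88.3 and 102 CPM) and *Pdgfra* (149.9 and 141 CPM) and the higher *Foxc1* (93.2 and 84.7 CPM). They also had the higher summed chondrocyte level, at 142496 and 88087 CPM against 44862 and 67407 CPM in replicates 2 and 3, and the lower summed osteoblast level, at 379555 and 366087 CPM against 652313 and 594467 CPM. *Cxcl12* had another order, with replicates 1 and 2 higher.

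**Figure D4:**
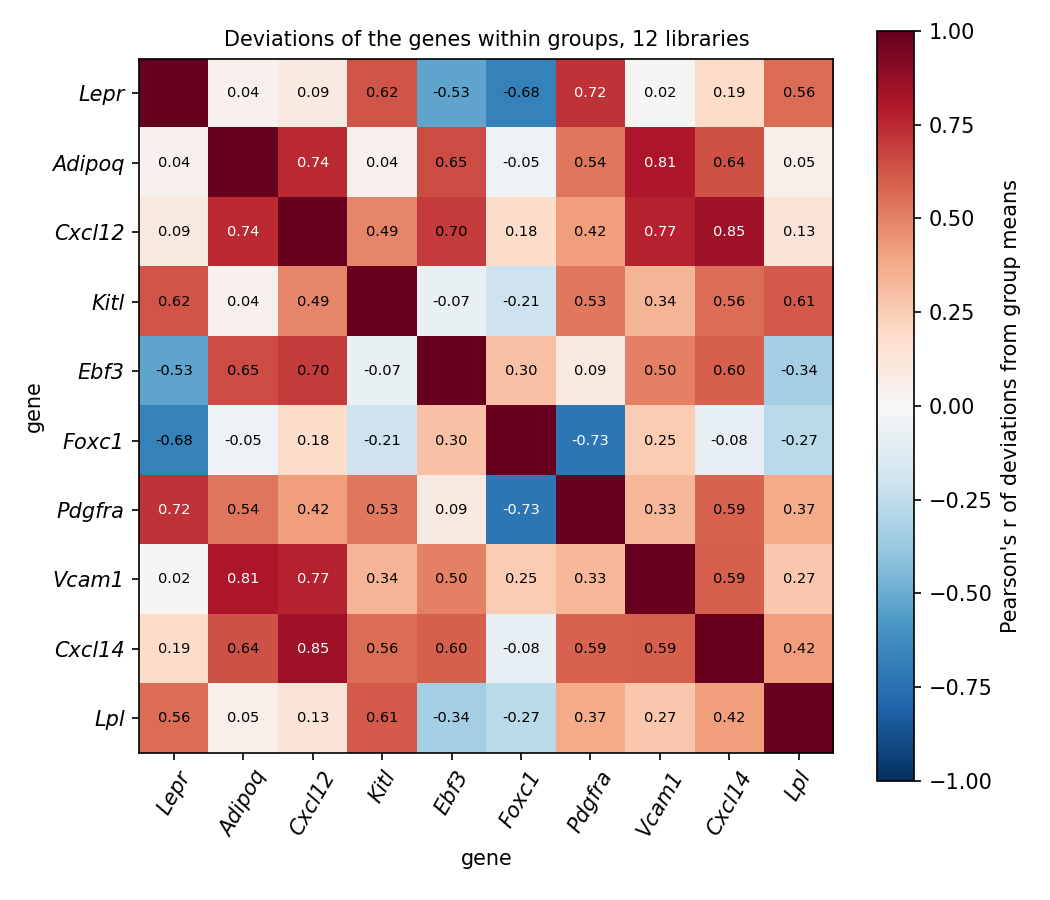
Pearson's r between the deviations of each pair of the 10 genes from their group means of log2(CPM + 1), over the 12 libraries; red is positive and blue negative. *Cxcl12*, *Cxcl14*, *Vcam1*, *Adipoq* and *Ebf3* are positive with one another, and *Pdgfra* is positive with each of them too (0.0869 to 0.587). *Lepr* and *Pdgfra* are opposite to *Foxc1* (-0.679 and -0.726), for *Lepr* through the adult libraries only.

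The genes most like each gene in these deviations were picked as the largest r among 8828 other genes with a mean of at least 5 CPM. A largest value of so many is high in part by selection, and none was tested. For *Lepr* they were *Cpe* (r = 0.978), *Lox* (0.977), which encodes the collagen cross-linking enzyme lysyl oxidase, and *Ramp1* (0.972). For *Pdgfra* they were *Abhd15* (0.975), *Satb1* (0.973) and *Tmem123* (0.968), and for *Foxc1* they were *Tbx15* (0.952), *Spats2l* (0.951) and *Srfbp1* (0.95). *Cxcl12* had *Ctif* (0.89), *Setd2* (0.887) and *Cxcl14* (0.85) as its nearest genes, the only case in which another of the 10 appeared. The nearest genes of *Vcam1* (*Lxn*, 0.937), *Cxcl14* (*Abl1*, 0.889) and *Lpl* (*Stim1*, 0.962) were none of the 10.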

How the data were processed

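Per the submitters' processing notes and the study's methods, single-end reads of a strand-marking library kit went through cutadapt 4.6, STAR 2.7.11a on mm10 and HTSeq-count 2.0.5, and the authors deposited raw counts of 32288 genes and transgenes in 12 libraries. The sources name different GENCODE releases for alignment and counting, and the strand setting of the counting is not given in the sources used here. Libraries were grouped by their titles. The 10 genes and all other lists were chosen with earlier results of these data known.

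The test was the quasi-likelihood F test of edgeR after TMM normalization and the filterByExpr filter, and p-values were adjusted by Benjamini-Hochberg over all genes tested. Juvenile and adult libraries were fitted alone. Juvenile libraries with both induced groups were fitted for comparisons with juvenile and between the induced groups, and all 12 libraries for comparisons with adult. Calls needed an adjusted p under 0.05 and, for induced against control, a log2 fold change of 1 or more in either direction. The SE is the absolute log2 fold change over the root of F. CPM values use the TMM factors of all 12 libraries, so their sums differ between libraries. Gene positions and exon lengths are from GENCODE vM21 on GRCm38, which holds 32235 of the gene IDs. Promoter sequence is from RefSeq.

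All genes of each list are counted; named are the called genes with the 3 largest absolute log2 fold changes and a mean of at least 1 CPM (nearest genes by r for the 7 genes with a mean of at least 10 CPM). No replicates were duplicates: over 14 pairs, the chi-square of the counts was 5.75 to 147 per degree of freedom, beyond sampling noise. Control replicates are separate pools of 2 mice; for induced libraries, p-values measure the spread between libraries. The alternatives were other normalizations, filters, sets of libraries, DESeq2, a replicate block and leaving out libraries; the fits without both libraries with Xist counts were added after seeing the data. The scripts were tested on simulated data. edgeR 4.0.16, DESeq2 1.42.0, R 4.3.3 and Python 3.11.15 were used.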

Additional observations from a re-analysis of the deposited data

Results flagged for a closer look

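*Kitl* stood out within the adult group. Adult replicate 2 was at 19.5 CPM, against 8.20 to 9.38 CPM in the other 3 adult libraries, a gap of 0.896 of the group's range, above Dixon's critical value for 4 samples. This was the only one of 20 such tests, for the 10 genes in the juvenile and adult groups, to pass that value, and chance passes about 1 in 20. Without that library, *Kitl* had a log2 fold change of -0.85 with *c-Myc* + *R172H* against adult, under the fold threshold.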

How the results depend on the processing

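Of 1205 values of single genes under other settings, 1123 kept their direction and side of the threshold, 36 lost the call, 28 gained it and 18 changed sign. The number of the 10 genes called between juvenile and adult libraries was 4 with library totals and 1 to 3 with 1 library left out, from 2. For *c-Myc* against juvenile it was 8 with no threshold on the fold change, 3 with library totals and 4 to 8 with 1 library left out, from 5. For *c-Myc* + *R172H* against *c-Myc* it was 0 with library totals, 2 with no filter on low counts, 0 with all 12 libraries fitted, 4 with only these groups fitted, 0 without both libraries with *Xist* counts and 0 to 1 with 1 library left out, from 1. Changes of sign between ages were *Lepr* with the replicate block (0.0227) and without 1 library (0.00351, 0.0141, 0.0926 and 0.111, over a range of -0.144 to 0.111) and *Lpl* without 1 library (0.0749, 0.0705 and 0.0208, over a range of -0.268 to 0.0749). With library totals *Foxc1* turned to 0.458 (*c-Myc* against juvenile), 0.766 and 0.164 (*c-Myc* + *R172H* against juvenile and adult), *Kitl* to 0.317 (*c-Myc* + *R172H* against juvenile) and *Pdgfra* to 0.186 (*c-Myc* + *R172H* against *c-Myc*), where the medians of all genes moved to 0.872, 1.12, 0.821, 1.12 and 0.207. In the last comparison *Foxc1* (-0.0404 and -0.00102, over a range of -0.0404 to 0.179), *Cxcl12* (-1.11 to 0.0678) and *Pdgfra* (-0.116 to 0.00777) changed sign with 1 library left out, and *Cxcl12* (0.289) without both libraries with *Xist* counts. The causes were not tested.

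Replicate numbers, taken from the titles, are not taken to pair the libraries, and the adult libraries carry other numbers in their library names. Deviations of same-numbered juvenile and adult libraries correlated at -0.0793 to 0.0535. Those of the induced groups correlated at 0.174, a single value because 2 libraries mirror each other, and there replicate 2 is the library with *Xist* counts in both groups. With the replicate block, calls numbered 2 between ages, 6 for *c-Myc* against juvenile, 1 for *c-Myc* + *R172H* against *c-Myc*, 6 for *c-Myc* + *R172H* against juvenile, 9 for *c-Myc* against adult and 8 for *c-Myc* + *R172H* against adult. The block took the call from *Cxcl12* for *c-Myc* + *R172H* against juvenile (-1.38, edgeR adjusted p = 0.167) and gave one to *Kitl* for *c-Myc* against juvenile (-1.01, edgeR adjusted p = 0.00397). Of 288 counts over the gene lists, 62 moved by more than 1.5 times, 42 with library totals and 20 with DESeq2. With 2 libraries in each induced group, differences between them are limited by the spread of 2 values, and *Adipoq*, at 12 to 26 counts with *c-Myc* + *R172H*, by counting.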

Other observations

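Among genes of vessels and mural cells, induction went in both directions. *Rgs5*, a pericyte gene, rose with *c-Myc* against juvenile libraries by 3.50 on the log2 scale (SE 0.60, edgeR adjusted p = 0.000345), from 1.49 ± 1.34 CPM (SD, n = 4) to 18.5 ± 3.86 CPM (SD, n = 2), while *Tagln* fell by 2.23 (SE 0.78, edgeR adjusted p = 0.0284) and *Abcc9*, a potassium channel subunit gene of mural cells, fell by 1.77 (SE 0.23, edgeR adjusted p = 3.88e-05). *Abcc9* was also one of the few genes called between the induced groups, where it fell by 1.40 with *c-Myc* + *R172H* (SE 0.27, edgeR adjusted p = 0.0482). Of 5 tested endothelial genes, 2 were called higher and 1 lower with *c-Myc*: *Egfl7*, a secreted vascular factor, rose from 0.152 ± 0.247 CPM (SD, n = 4) to 6.68 ± 1.05 CPM (SD, n = 2), and the endothelial transcription factor gene *Erg* fell by 1.95 (SE 0.71, edgeR adjusted p = 0.0345). The myeloid lysozyme gene *Lyz2* was at 0.338 ± 0.439 CPM (SD, n = 4) in juvenile, 6.38 ± 2.61 CPM (SD, n = 4) in adult, 6.16 ± 0.455 CPM (SD, n = 2) in *c-Myc* and 2.48 ± 1.54 CPM (SD, n = 2) in *c-Myc* + *R172H* libraries. The summed level of 9 skeletal muscle genes was at most 3.24 CPM in any library, and 0 of them passed the filter for testing.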
